A study of Drosophila melanogaster with 24 samples.

Results

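The arrays described here measured what 10 days on DR food looked like in female flies whose RNAi transgene had been switched on with the drug RU486, against flies on the same food without the drug. They are 12 of the 24 arrays of the series, and their labels put them in their groups: 6 pools on DR without RU486 (called DR below) and 6 pools on DR with RU486 (DR+RU486). DR is dietary restriction. The other 12 arrays, 6 pools on AL and 6 on AL with RU486 (AL+RU486), enter for the spread between pools and for the test of whether a change differs between diets. AL is the labels' name for the other diet and is not spelled out there.

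All 24 pools had the genotype +/+; Act5c-GS-Gal4/+; P{GD3482}v8105 /+, so flies without RU486 carried both transgenes too. Each pool held about 35 female flies aged 13 days. Its RNA was amplified, labelled with Cy3 and hybridised to a 1-colour NimbleGen oligonucleotide array. The series' design text calls the AL flies without RU486 wild type and uses them as its control, although the strain label is the same for every pool. Neither the dose of RU486 nor a line without the RNAi insertion was given in the sources used here. The drug and the switched-on transgene therefore cannot be told apart.

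GeneSwitch is a form of the yeast activator Gal4 fused to the ligand-binding domain of a steroid hormone receptor. It turns on genes placed behind UAS sites only when RU486 is present, and the Act5c promoter places it in most cells of the fly. Here it drives an inverted repeat, which the cell cuts into small interfering RNAs that remove the matching mRNA. The labels do not name the gene that the insertion targets; by general knowledge it is ACC. This enzyme, acetyl-CoA carboxylase, makes malonyl-CoA, the building block of new fatty acids and an inhibitor of their import into mitochondria. No transcript is paired with ACC in the table of gene names used here, so the knockdown was not checked at its target.

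Of the 16637 transcripts measured, 16 could be paired with a single gene symbol, 28 matched several and 16593 had none. Results are therefore given for the 16 named transcripts and for 10 others by their FlyBase transcript identifier. Log2 brightness was averaged over the probes of a transcript, usually 8. To set a background, random-sequence probes were averaged in 511 sets of 8 on each array, and the 95th percentile of these sets was taken. A transcript is said to have risen or fallen where its p-value from limma, after Benjamini-Hochberg adjustment across the 16637 transcripts, was under 0.05. In RNA of pooled flies, fewer cells of a type and less RNA per cell cannot be told apart.

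RU486 on DR changed many transcripts by small amounts and a few by large ones. Of the 16637 transcripts 2284 (13.7%) passed, 990 higher (5.95%) and 1294 lower (7.78%) with RU486. Those that rose did so by a median of 0.27 log2, or 1.20-fold, and those that fell by a median of 1.27-fold. Large changes were mostly falls. At 1.5-fold or more, 161 transcripts (0.968%) fell and 14 (0.0841%) rose, and at 2-fold or more 37 fell and 2 rose. After centring each array on its median, 1392 rose and 1063 fell, so the split of all calls depends on the scaling of the arrays. At 1.5-fold or more the same centring left 138 falls and 15 rises.

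Array DR+RU486 pool 3 stood apart from its group. The SD over transcripts of its difference from the mean of the other 5 pools was 0.274 log2, against 0.143 to 0.191 in those pools and 0.121 to 0.186 in the DR pools. Its median over all probes was 9.26 log2, against 9.43 to 9.47 in the other DR+RU486 pools. Without it 1345 transcripts (8.08%) passed, 613 higher (3.68%) and 732 lower (4.4%), and 1259 of these also passed, in the same direction, with all pools. At 1.5-fold or more 123 fell and 12 rose without it. An array of the other diet, AL+RU486 pool 1, stood farther apart, at 0.438 log2, and enters the shared spread. With that array and DR+RU486 pool 3 both left out 2984 transcripts passed, 1521 higher and 1463 lower, and 1613 passed when only the 12 DR arrays were fitted without pool 3. The 12 DR arrays with pool 3 gave 2308, so the count was lower without pool 3 in that fit too. No fit left out AL+RU486 pool 1 alone, so the count of 2984 cannot be divided between the arrays left out. Pool 5 of the DR group had a larger hold on the count. With that pool left out 1093 transcripts passed, 427 higher and 666 lower.

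**Figure D1:**
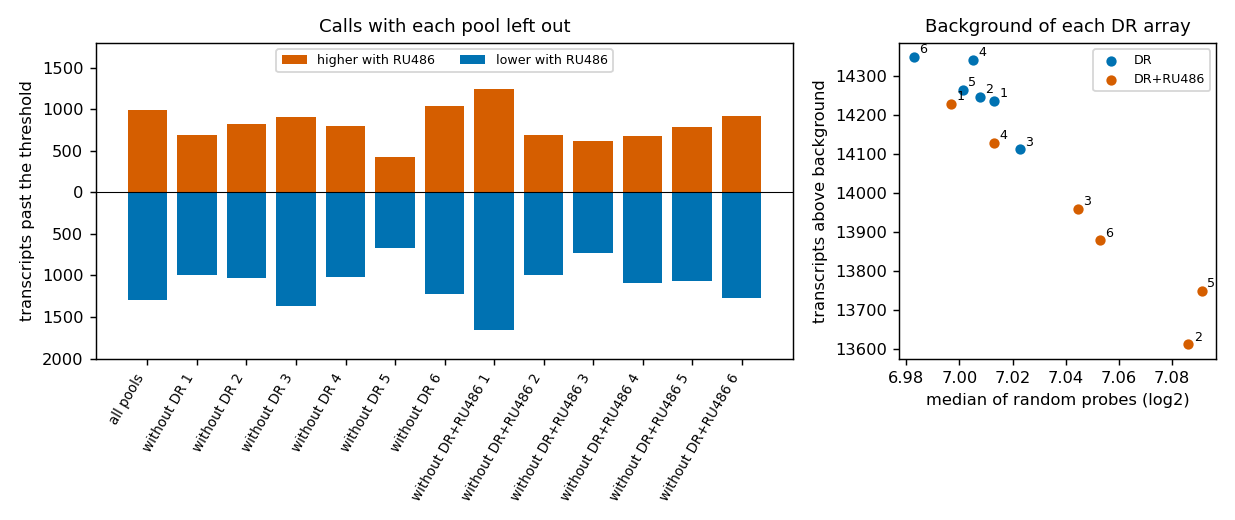
Left, transcripts past the threshold for RU486 on DR with all pools and with each of the 12 DR pools left out in turn, higher with RU486 above the zero line and lower below it. Right, for each DR array, the number of transcripts above background against the median log2 brightness of the random probes, with pool numbers. The count is lowest, at 1093, without DR pool 5, and 4 of the 6 DR+RU486 arrays lie to the right of all DR arrays.

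Random-sequence probes, which match no fly transcript, had a slightly higher mean brightness with RU486, by a test that did not hold without some of the pools. Their median per array was 6.98 to 7.02 log2 in the DR pools, with a median of 7.01, and 6.997 to 7.09 with a median of 7.05 in the DR+RU486 pools. The groups overlapped at pools 1 and 4 of DR+RU486. The difference of 0.042 log2 gave an exact two-sided permutation p of 0.0325 over all splits of the 12 arrays, or 0.0487 adjusted over the 3 array-level tests. With 1 pool left out in turn, the unadjusted p was above the threshold in 4 of 12 cases (exact permutation p from 0.0563 to 0.0628). Adjusted values were not computed there. Fewer transcripts lay above background, 13926 ± 231 against 14259 ± 86.4 (SD, n = 6; exact permutation p = 0.00866, adjusted 0.026). Only pools 1 and 4 of DR+RU486, at 14229 and 14129, lay within the range of the DR pools, 14113 to 14350. The background of each array came from its own random probes. It was 7.35 to 7.41 log2 in the DR pools and 7.36 to 7.60 in the DR+RU486 pools. It was highest in pool 2 of DR+RU486, which had the lowest count, 13611. The count is therefore not separate from the random-probe brightness, and the part of the background in it was not tested. The spread of an array around its group averaged 0.186 ± 0.047 log2 with RU486 and 0.156 ± 0.026 without (exact permutation p = 0.208). The part of the random-probe brightness in the falls described here was not tested.

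The counts of rises and falls differed between classes of brightness. When transcripts were ordered by their mean over the 24 arrays and cut into 4 classes of equal size, the second dimmest class, from 7.88 to 9.65 log2, held 643 of the falls and 162 of the rises. It also held 112 of the 161 falls of at least 1.5-fold. In the next class, from 9.65 to 11.01 log2, the balance was the other way, with 465 rises and 310 falls. The brightest class held 307 rises and 239 falls, and the dimmest 56 and 102. The median difference over all transcripts of each class, from dimmest to brightest, was 0.03, −0.08, 0.04 and 0.002 log2. Without DR+RU486 pool 3 the second dimmest class still had more falls, 356 against 100, and the next class more rises, 288 against 170. On AL food the medians of the same classes lay between −0.01 and 0.005 log2. The mean used for the classes includes the AL arrays, where many transcripts that fell were dim.

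**Figure D2:**
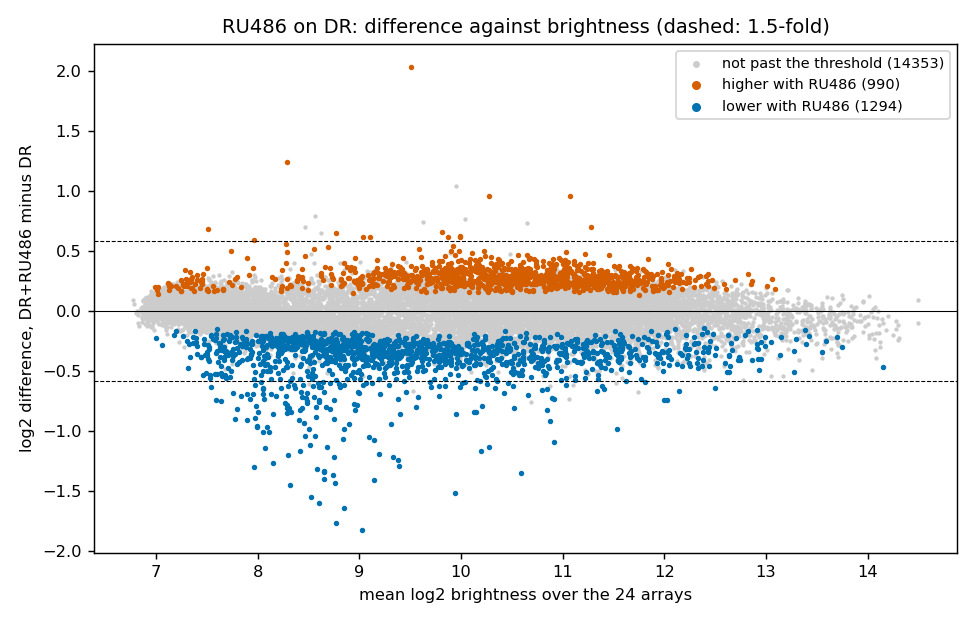
Each point is 1 of 16637 transcripts, with its mean log2 brightness over the 24 arrays on the horizontal axis and the log2 difference DR+RU486 minus DR on the vertical axis. Orange points rose (990), blue points fell (1294), and dashed lines mark 1.5-fold. The falls past 1.5-fold lie mostly between 7.88 and 9.65 log2.

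Of the 2284 transcripts that changed, 2156 were above background on all 12 DR arrays, 940 that rose and 1216 that fell, and 17 were above it on none. Over all 16637 transcripts these numbers were 13198 and 1594. All 8 probes moved the same way for 887 (68.7%) of 1292 transcripts that fell and for 53.1% of the 990 that rose, against 2523 (15.2%) of all 16617 transcripts with 8 probes. The same 8 probes gave the transcript's own value, so these shares describe the calls and are no separate evidence for them. A change from detected on all 6 pools to detected on none was rare. It was seen for 8 transcripts in the direction of loss with RU486 and for 1 in the direction of gain.

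The strongest rise was that of FBtr0070490. It lay at 8.71, 8.92 and 9.03 log2 (lowest, median, highest of 6 pools) on DR and at 10.61, 10.96 and 11.19 with RU486. Every DR+RU486 pool was above every DR pool. The difference of 2.03 ± 0.07 log2 (SE) had an adjusted p of 3.27e-16 and equals 4.08-fold. It was 2.10 without pool 3, which was the lowest of its group. All 8 probes rose, by 0.84 to 2.66 log2. On AL the transcript went from 8.45 ± 0.05 to 9.74 ± 0.09 log2 (SD, n = 6) with RU486. The rise on DR exceeded that on AL by 0.74 ± 0.10 (SE, adjusted p = 0.000646).

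FBtr0081372 came next. On DR its pools were at 7.61, 7.78 and 7.95 log2, close to background but above it on all 6 arrays. With RU486 they were at 8.16, 9.15 and 9.40, where pool 6 was the lowest and the next lowest, pool 5, was at 8.97. The groups did not overlap. The rise was 1.24 ± 0.14 log2 (SE, adjusted p = 9.16e-06), or 2.36-fold, and 1.19 without pool 3. On AL it was 1.16 ± 0.14 (adjusted p = 3.52e-05), with 3 of 6 AL arrays below background. The difference between the diets was 0.09 ± 0.20 log2 (adjusted p = 0.83).

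Among transcripts above background on all 12 DR arrays, FBtr0078975 and FBtr0071486 fell most, and both were scattered between pools. FBtr0078975 lay at 9.89, 10.97 and 11.33 log2 on DR and at 7.69, 9.47 and 9.96 with RU486. Only the lowest DR pool, pool 3, reached into the range of the other group. The difference was −1.64 ± 0.27 log2 (SE, adjusted p = 0.000631), or 3.12-fold, and −1.77 without DR+RU486 pool 3. In FBtr0071486 the pools were at 12.18, 12.28 and 13.07 on DR and at 9.09, 11.44 and 12.06 with RU486, with no overlap. The difference was −1.52 ± 0.33 log2 (adjusted p = 0.00481).

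FBtr0078597 and FBtr0073333 fell by more, and in each pool 4 of DR+RU486 was below background. The fall of FBtr0078597 was the largest among all transcripts that passed. FBtr0078597 lay at 9.74, 11.44 and 11.83 log2 on DR and at 7.41, 9.88 and 10.50 with RU486. It overlapped because DR pool 5 was at 9.74 while the other DR pools were at 11.19 or more. FBtr0073333 lay at 10.31, 10.65 and 11.72 on DR and at 7.23, 9.40 and 10.09 with RU486, with no overlap. The difference was −1.82 ± 0.36 log2 for FBtr0078597 (adjusted p = 0.00261) and −1.77 ± 0.32 for FBtr0073333 (adjusted p = 0.00113). Without pool 3 they were −1.95 and −1.83. On the DR arrays alone without pool 3, limma gave an adjusted p of 0.0271 for FBtr0078597 and 0.0228 for FBtr0073333. With the AL arrays included it was 0.00316 and 0.00197.

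A pair with tighter pools was FBtr0078619 and FBtr0077334, named because, among transcripts past the threshold and above background on all 24 arrays, their difference between diets was the most negative. FBtr0078619 went from 11.81, 11.94 and 12.36 log2 on DR to 10.20, 10.86 and 11.45 with RU486. FBtr0077334 went from 9.99, 10.41 and 11.02 to 8.92, 9.35 and 9.89. In neither did the groups overlap, and all 8 probes fell in both. The falls were 2.19-fold and 2.11-fold (adjusted p = 2.1e-05 and 0.000174). On the DR arrays alone without DR+RU486 pool 3, limma gave an adjusted p of 0.00783 for FBtr0078619 and 0.0115 for FBtr0077334. With the AL arrays included it was 6.6e-05 and 0.000431. On AL the same transcripts stood 0.31 ± 0.14 and 0.35 ± 0.16 log2 higher with RU486 and did not pass there (adjusted p = 0.529 and 0.539). These SEs share the wider spread of the DR pools. For FBtr0078619 the SD was 0.09 on AL and 0.07 on AL+RU486, against 0.25 on DR and 0.44 on DR+RU486. Its AL+RU486 pools, at 9.12 to 9.35 log2, lay above every AL pool, at 8.83 to 9.05. For FBtr0077334 the AL pools, at 8.03 to 8.44, overlapped those with RU486, at 8.29 to 8.71. The failure to pass thus does not show that neither rose on AL. The difference between diets was −1.44 ± 0.19 log2 for the former and −1.43 ± 0.23 for the latter (adjusted p = 0.000646 and 0.00191).

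At the other end of that difference stood FBtr0087401 and FBtr0074028. FBtr0087401 was at 7.79, 7.95 and 8.18 log2 on DR and at 8.19, 8.36 and 8.60 with RU486, groups that were only just apart. It rose on DR by 0.44 ± 0.10 log2 (SE, adjusted p = 0.00639) and fell on AL by 0.54 ± 0.10 (adjusted p = 0.00385), a difference of 0.98 ± 0.14 (adjusted p = 0.000797). FBtr0074028 was at 8.99, 9.04 and 9.25 log2 on DR and at 9.22, 9.30 and 9.51 with RU486, and 4 of 6 DR+RU486 pools lay above every DR pool. The difference of 0.25 ± 0.13 log2 did not pass (adjusted p = 0.216), though it did in 4 alternatives, 1 of them added after the data were seen (adjusted p from 0.0194 to 0.0353). On AL it fell by 0.58 ± 0.13 (adjusted p = 0.0329), and the difference was 0.83 ± 0.19 (adjusted p = 0.0121). Its AL+RU486 pool 1, at 8.99 log2, lay far below the other pools of that group. The difference was 0.64 without that array and DR+RU486 pool 3.

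**Figure D3:**
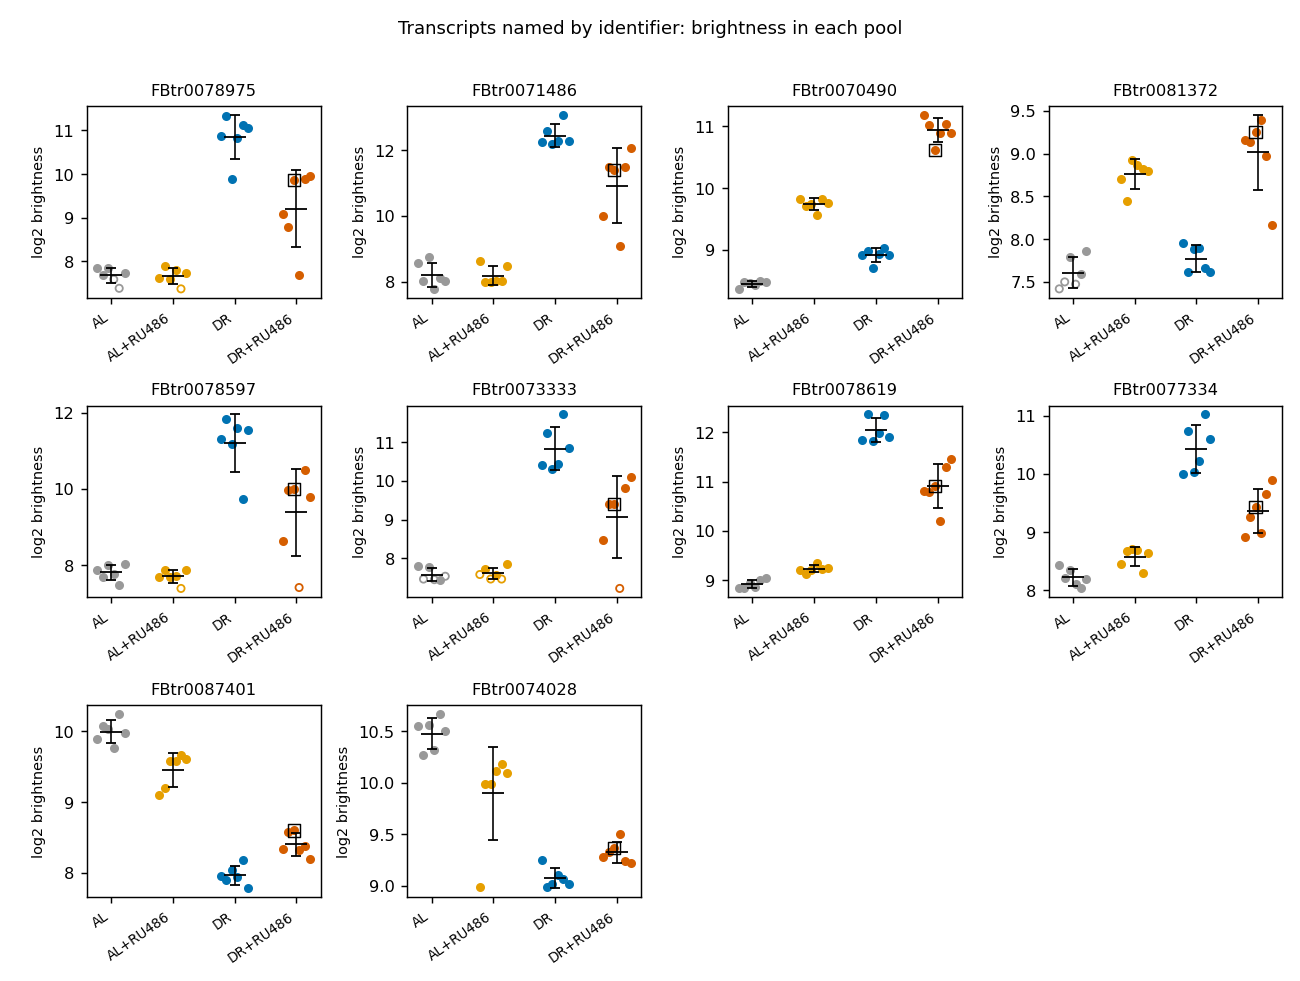
Log2 brightness of the 10 transcripts named by identifier in each of the 6 pools of AL, AL+RU486, DR and DR+RU486, pools 1 to 6 from left to right within a group. Bars are the mean and SD of 6 pools, open circles lie below background, and a square marks DR+RU486 pool 3. FBtr0070490 and FBtr0081372 are higher in every pool given RU486 on both diets, and the 6 that fell are lowest on DR+RU486 in pool 4 or, for FBtr0077334, pool 1.

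In the 6 transcripts that fell and are named by identifier, the same pools tended to lie at the ends. Pool 4 of DR+RU486 was the lowest of its group in 5 of the 6 and pool 6 the highest in 5. Over the 161 transcripts that fell by at least 1.5-fold, pool 4 was lowest for 60 (37.3%), pool 1 for 50 (31.1%) and pool 3 for 43 (26.7%), and pool 6 was highest for 82 (50.9%). Over all 16637 transcripts pool 3 was lowest for 35.1%, pool 1 for 19.2% and pool 4 for 1830 transcripts, and pool 6 was highest for 14.8%. The median of these 161 minus the DR mean was −1.11 log2 in pool 1 of DR+RU486, −0.91 in pool 4, −0.90 in pool 3, −0.74 in pool 2, −0.61 in pool 5 and −0.47 in pool 6. All 6 pools were thus lower, pool 1 the most and pool 6 the least. In the DR group pool 5 was the highest for 96 of the 161 (59.6%), against 22.4% of all transcripts. These transcripts were chosen by the same contrast, so the values describe the pools and test nothing.

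The 161 were more variable than most in both groups. Their median SD between pools was 0.350 log2 on DR and 0.368 on DR+RU486, where all transcripts had 0.111 and 0.127. Their median level was 9.94 log2 on DR and 8.97 on DR+RU486, beside 8.04 on AL and 7.97 on AL+RU486. The 990 that rose had median levels of 10.17 log2 on DR and 10.45 on DR+RU486, beside 10.67 and 10.63 on AL without and with RU486. The groups did not overlap for 875 of all transcripts (5.26%), 461 with RU486 higher (2.77%) and 414 with RU486 lower (2.49%), and for 67 of the 161 (41.6%). The 161 were chosen by this same contrast, so their larger share follows from the choice.

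**Figure D4:**
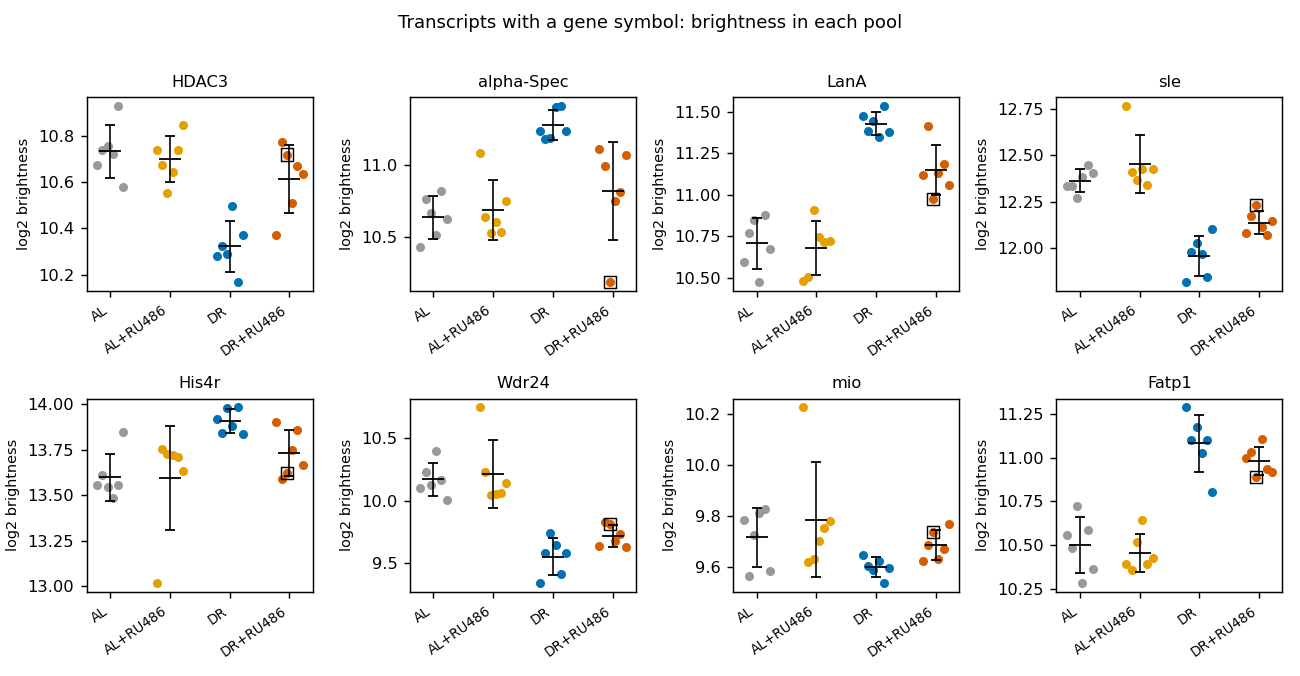
Log2 brightness of 8 transcripts with a gene symbol in each of the 6 pools of the 4 groups, with mean and SD, and a square around DR+RU486 pool 3. HDAC3, alpha-Spec and LanA passed for RU486 on DR. In alpha-Spec pool 3 is the lowest of its group, at 10.19 log2.

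Among the 16 transcripts with a symbol, HDAC3 rose, alpha-Spec and LanA fell, and 13 did not pass. That is 3 of 16, beside 13.7% of all transcripts. Their median difference was 0.04 log2, beside 0.005 for all transcripts. HDAC3, a histone deacetylase, was at 10.17, 10.31 and 10.50 log2 (lowest, median, highest) on DR and at 10.37, 10.65 and 10.78 with RU486. In 5 of 6 DR+RU486 pools it was above every DR pool, and pool 1 was the exception. Its rise of 0.29 ± 0.07 log2 (SE) passed with an adjusted p of 0.00913 and was 0.27 without pool 3 (adjusted p = 0.0264), with 7 of 8 probes higher.

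The spectrin alpha-Spec, a part of the skeleton under the cell membrane, was at 11.18, 11.24 and 11.41 log2 on DR. With RU486 it was at 10.19, 10.90 and 11.11, and the groups did not overlap. Its level fell by 0.46 ± 0.12 log2 (SE), which is 1.37-fold (adjusted p = 0.0136), with all 8 probes lower. The probes differed in size, from −1.22 to −0.22 log2, and 2 of the 8 passed when probes were tested singly. The lowest value of alpha-Spec was that of pool 3, and without that pool the fall was 0.33 log2 (adjusted p = 0.0312). LanA, the alpha chain of laminin in basement membranes, was at 11.35, 11.42 and 11.53 on DR and at 10.97, 11.13 and 11.41 with RU486. In 5 of 6 DR+RU486 pools it was below every DR pool, and pool 2 was not. It fell by 0.28 ± 0.08 log2 (adjusted p = 0.0211). That call was lost without pool 3 of DR+RU486 in the fit of all remaining arrays (adjusted p = 0.0602), without pool 5 of DR (adjusted p = 0.0612) and with the median over probes in place of the mean (adjusted p = 0.216). With pool 3 left out it passed when AL+RU486 pool 1 was left out too (adjusted p = 0.0265) and when only the DR arrays were fitted (adjusted p = 0.0338).

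For these 3 genes the AL comparison gave −0.03 ± 0.07 log2 for HDAC3, 0.05 ± 0.12 for alpha-Spec and −0.03 ± 0.08 for LanA. The test of the difference between diets did not pass for any of them, with adjusted p of 0.0502, 0.0654 and 0.164. In the main fit their response to RU486 is therefore not shown to differ between DR and AL. The test did pass in some alternatives for HDAC3 (adjusted p from 0.0156 to 0.0487) and for alpha-Spec (adjusted p from 0.0321 to 0.0496).

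Of the lists of genes written for this tissue and treatment, the one on histones and chromatin had 4 members among the named transcripts. HDAC3 rose and 3 did not pass. The histone H4 gene His4r was lower by 0.17 ± 0.10 log2 (adjusted p = 0.225), with 8 of 8 probes lower. SuUR, which acts on late replication of heterochromatin, differed by 0.13 ± 0.08 (adjusted p = 0.337), and kis, a chromatin remodeller of the CHD family, by −0.01 ± 0.06. Of the insulin and TOR list, Wdr24 and mio were named, both subunits of GATOR2, a complex that acts on TORC1 when amino acids change. Neither passed. Wdr24 was at 9.34, 9.58 and 9.74 log2 on DR and at 9.63, 9.70 and 9.83 with RU486, a difference of 0.17 ± 0.10 (adjusted p = 0.247). For mio the difference was 0.09 ± 0.08 (adjusted p = 0.476), and 4 of 6 DR+RU486 pools lay above every DR pool.

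The fatty acid transport protein gene Fatp1 was the only named member of the list on fatty acid oxidation and lipolysis. It was at 10.80, 11.10 and 11.29 log2 on DR and at 10.89, 10.97 and 11.11 with RU486, so that the range with RU486 lies inside that of DR. Its difference was −0.10 ± 0.08 log2 (adjusted p = 0.397). Another gene, sle, which encodes a protein of the nucleolus, was higher by 0.18 ± 0.06 and did not pass (adjusted p = 0.0601), with 4 of 6 DR+RU486 pools above every DR pool. It passed in 4 of the alternatives (adjusted p from 0.0285 to 0.0379). CG16974 was higher by 0.09 ± 0.05 log2 (adjusted p = 0.29), and 5 of 6 DR+RU486 pools lay above every DR pool, whose own range was only 11.55 to 11.63.

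The other 5 differed by less than 0.1 log2. They were NaPi-III at 0.08 ± 0.08 log2, fend at 0.04 ± 0.15, Uba1, the ubiquitin-activating enzyme, at 0.03 ± 0.05, CG31178 at 0.005 ± 0.057 and rdx, an adaptor of a ubiquitin ligase, at −0.04 ± 0.10. CG31178 was above background on 0 of the 12 arrays, so its value says nothing of a change. Without pool 3 fend was at 0.13 ± 0.14 log2.

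**Figure D5:**
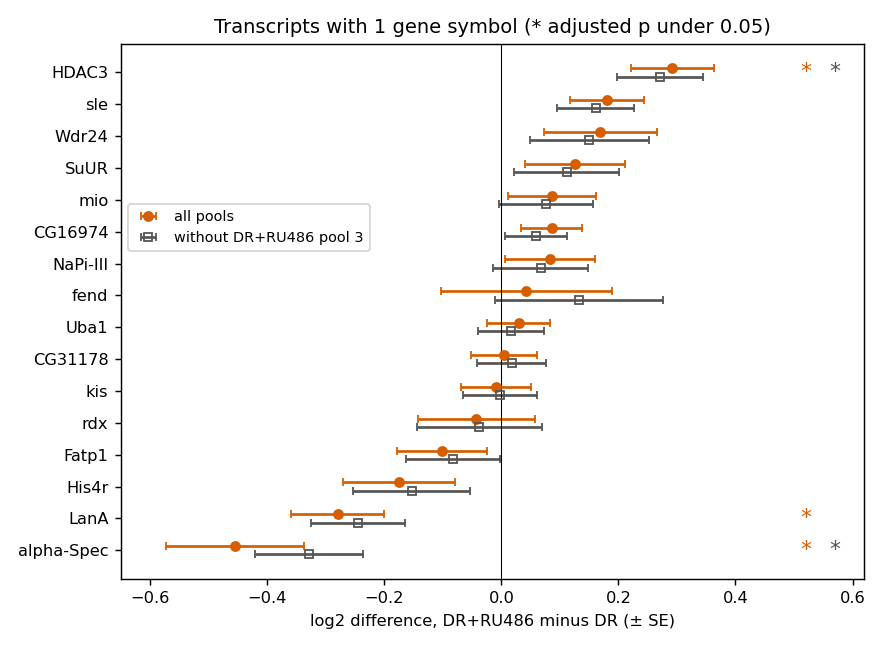
Log2 difference DR+RU486 minus DR, with its SE, for the 16 transcripts with 1 gene symbol, with all pools (filled) and without DR+RU486 pool 3 (open squares). Stars mark an adjusted p under 0.05, coloured as the points they belong to. HDAC3 is at 0.29, LanA at −0.28 and alpha-Spec at −0.46 log2, and LanA has no star without pool 3.

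The difference between AL+RU486 and AL is taken from other arrays, so the transcripts changed on DR can be looked up there. The spread behind its p-values is shared with the DR arrays. On AL 104 of 16637 transcripts (0.625%) passed. This count was 342 with array weights and 159 without AL+RU486 pool 1 and DR+RU486 pool 3. Of the 14 that rose by at least 1.5-fold on DR, 13 were also higher with RU486 on AL, with a median of 0.38 log2, and 5 passed there. Of the 161 that fell by at least 1.5-fold, 100 (62.1%) were lower on AL, with a median of −0.03 log2, and 3 passed as lower. Their median level was 8.04 log2 on AL and 7.97 on AL+RU486, where the background of the arrays was 7.45 to 7.68. A transcript at that median had little room to fall on AL, and how many of the 161 lay near background there was not counted. FBtr0078619 and FBtr0077334 were above background on all AL arrays and stood higher there with RU486. Among all 990 that rose on DR, 709 (71.6%) were lower on AL and 281 higher, and 10 passed as higher and 3 as lower. Of the 1294 that fell, 633 (48.9%) were lower on AL, where 18 passed as lower and 1 as higher. Over all transcripts 51.3% were lower on AL. Transcripts move together and are not independent, so these shares are descriptions.

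The test of the difference itself passed for 1084 transcripts (6.52%), 554 with a higher (3.33%) and 530 with a lower value (3.19%) on DR than on AL. It passed for 8 of the 10 transcripts named by identifier. FBtr0078619, FBtr0077334, FBtr0087401 and FBtr0074028 were named because they passed this test. The others were named for their change on DR, which is part of the difference. The number thus follows in part from the naming. For 1 of the 8, FBtr0078597, the call (adjusted p = 0.0435) was lost with the pool number as a block (adjusted p = 0.0541) and in 6 of the 12 fits that left out 1 DR pool. FBtr0081372, with a rise on both diets, was one of the exceptions, and FBtr0071486 was the other, at −1.49 ± 0.46 log2 (adjusted p = 0.0518). For FBtr0078975 the difference was −1.64 ± 0.39 (adjusted p = 0.0152). Its AL levels, 7.68 ± 0.17 without and 7.67 ± 0.185 with RU486, were near background, and 4 and 5 of 6 arrays lay above it. FBtr0073333, whose difference was −1.80 ± 0.45 (adjusted p = 0.0186), was at 7.58 ± 0.16 and 7.61 ± 0.15 on AL, with 3 of 6 arrays of each AL group above background. FBtr0078597 was at 7.81 ± 0.21 on AL and 7.71 ± 0.18 on AL+RU486, with 6 and 5 of 6 arrays above background. A fall on AL could hardly be seen for any of FBtr0078975, FBtr0073333 and FBtr0078597.

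Arrays of the same group also differed from each other. The SD over transcripts of the difference between a pair of arrays was 0.156 to 0.245 log2 within DR, with a median of 0.198 over 15 pairs. Within DR+RU486 it was 0.169 to 0.337, with a median of 0.227, and 0.209 over 10 pairs without pool 3. Between the groups it was 0.198 to 0.446, with a median of 0.262 over 36 pairs, and 0.243 over 30 pairs without pool 3.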

How the data were processed

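Per the labels, RNA of each pool was amplified and labelled with Cy3, and each step from extraction to labelling was randomized with respect to group. The authors deposited 1 processed log2 value per probe and array, 137090 probes without missing values, from 6.09 to 16.51. The log2 base is read from that range. Per the submitters' processing notes limma was used. Background correction, normalization and slide are not given in the sources used here, and batches could not be tested. The values were used as deposited. The 4091 random probes were dropped and the other 132999 averaged by the first 11 characters of their identifier.

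All 24 arrays were fitted with 1 mean per group (limma 3.58.1, R 4.3.3, lmFit and eBayes), which lets the other diet's pools inform the spread, and p-values were adjusted over all 16637 transcripts. The procedure was run on simulated data with independent noise and, for each transcript, the same SD in every group. Transcripts that move together, arrays that stand apart and unequal spread between groups were not simulated. An exact two-sided permutation test served for each array-level value. Nothing says whether pools came from separate cultures, so p-values measure the spread between these pools. The number of arrays limits the precision. Symbols come from a RefSeq table of Release 6. Identifiers were named by rule: the 2 highest and 2 lowest changes past the threshold for RU486 on DR that were above background on all 12 DR arrays, the same with a mean above the 25th percentile, and for the difference between diets the same above background on all 24 arrays. The arrays compared, the lists and the tests were chosen with earlier results of these data known. Of 14 gene lists, 10 held no named transcript, and the list of laminins and basement membranes held LanA. No sequence of a probe or transcript was used here.

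Pool numbers are shared between groups in the labels, but the deviations of same-numbered DR and DR+RU486 pools correlated at −0.28 to 0.15, so the number was not used as a pairing. Alternatives were quantile normalization, centring, medians over probes, single probes, the 12 DR arrays alone, array weights, the pool number as a block, 2 filters on background, a trended robust variance, leaving out single DR pools, and leaving out AL+RU486 pool 1 and DR+RU486 pool 3 together.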

Additional observations from a re-analysis of the deposited data

Results flagged for a closer look

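In 58 groups of 6 pools examined, 4 had 1 value far from the rest, and chance gives about 1 in 20. FBtr0078975 had DR pool 3 at 9.89 log2, FBtr0078597 had DR pool 5 at 9.74, and FBtr0081372 had DR+RU486 pool 6 at 8.16. The spread of DR+RU486 pool 3 around its group, 0.274 log2, was the fourth.

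The effect of RU486 differed between diets, by the test of the difference in limma, for 8 transcripts named by identifier. Of these, FBtr0078619, FBtr0077334, FBtr0087401 and FBtr0074028 were named because they passed this test. The call for FBtr0078597 was lost in 7 alternatives. On DR the effect was lower than on AL by −1.80 log2 for FBtr0073333, −1.72 for FBtr0078597, −1.64 for FBtr0078975, −1.44 for FBtr0078619 and −1.43 for FBtr0077334. On AL FBtr0073333, FBtr0078597 and FBtr0078975 were near background, where a fall could hardly be seen. It was higher by 0.98 for FBtr0087401, 0.83 for FBtr0074028 and 0.74 for FBtr0070490.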

How the results depend on the processing

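The count for RU486 on DR, 2284, lay between 1894 and 3204 under the alternatives of normalization, summary, filter, weights, block and variance, or without both arrays that stood apart (2984), with 2308 for the 12 DR arrays alone. It was 175 with a change of at least 1.5-fold required and 7306 of 132999 with single probes tested. With 1 DR pool left out it was 1093 to 2902, and the fit of the 12 DR arrays without DR+RU486 pool 3, chosen after the data were seen, gave 1613. For the difference between diets, 1084 became 2281 with array weights and 620 (without DR pool 5) to 1696 (without DR+RU486 pool 1) with 1 DR pool left out. Centring shifts the transcripts and the background of an array alike, so it could not move the count of transcripts above background. The difference in that count stayed between −423.7 and −270.3, and past the threshold by its unadjusted p (exact permutation p from 0.00433 to 0.0238). That of the random probes was 0.0333 to 0.0522 log2 with 1 pool left out and missed the threshold by its unadjusted p without DR pool 5 or 6 or DR+RU486 pool 2 or 5 (exact permutation p from 0.0563 to 0.0628). That of the spread, 0.0101 to 0.0453 log2, passed without DR+RU486 pool 5 (exact permutation p = 0.0455). The cause of these changes was not tested. With the pool number as a block 2047 and 972 transcripts passed, and 1 pool of DR+RU486 and 0 pools of DR correlated best with their own number. No named call changed sign. The differences between diets of FBtr0078597 (adjusted p from 0.0535 to 0.0714, block included) lost their call in 7 alternatives, and those of HDAC3 (0.0156 to 0.0487), FBtr0071486 (0.0229 to 0.0492) and alpha-Spec (0.0321 to 0.0496) passed in 7, 7 and 4. Signal over background limits the transcripts above background on 0 of the 12 DR arrays, of which there were 1594.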
